A study of Bos taurus with 40 samples.

Results

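A small set of muscle genes held a level that differed from bull to bull and stayed with the bull between biopsies. In the 13 bulls used to choose them, their medians were similar in restricted and control animals. 26 of the 24616 annotated genes made up this set. They were chosen on measured values. Counts were scaled to counts per 1000000 gene counts (CPM), turned into log2(CPM + 0.5), and centred on the mean of each group. Each had to correlate at a Pearson r of at least 0.85 between the day 120 and day 15 deviations of the same bulls, to spread by an SD of at least 0.4 log2 units, and to average between 1 and 1000 CPM. The medians of the feeding groups had to lie within 0.3 log2 units of each other at both biopsies. The choice used 13 bulls. The values of the other 7 bulls did not enter the computation of the rule, and these bulls served to look at the same genes again.

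The study gave 10 Holstein-Friesian bulls a limited feed allowance for 125 days (period 1), meant to let them gain 0.6 kg daily, followed by 55 days of unlimited feed (period 2). The control group of 10 bulls fed freely in both periods. Both groups were fed 70% concentrate with 30% grass silage, and muscle RNA was sequenced from day 120 of period 1 and day 15 of period 2. The labels give no age and no genotype beyond the breed, and 1 protocol text gives larger groups than the 10 numbered bulls per group that the titles name. The 40 libraries held 20.8 to 33.0 M gene counts (M, 1000000), with a median of 25.6 M. Equal numbers at both times were taken to mean the same bull. The deviations of such libraries correlated over genes tested at 0.18 to 0.40 in restricted and 0.10 to 0.43 in control animals. For these correlations the mean shift of the 7 libraries described below was taken out. In 19 of 20 bulls the first number of the library code differed between both libraries, so the shared level of a bull was mostly read from libraries of different code numbers. In 7 libraries, 10.0% to 11.2% of reads fell outside genes, against 13.3% to 18.7% in the other 33. They were restricted bulls 1 and 9 at day 120, restricted bull 10 at day 15, control bull 6 at day 120 and control bulls 2, 3 and 8 at day 15. These are the 7 bulls left out of the choice, and each has 1 such library, called the apart library here, and 1 ordinary library. All 7 apart libraries had a first code number of 5 or 6, and 1 ordinary library, that of control bull 2 on day 120, had one too.

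Muscle from different animals of one breed differs in its RNA for many reasons. A level that is present in some animals and near absent in others is known for genes with common deletions, copy number variants or regulatory variants, while graded differences are known to come from many inherited and environmental sources. The files name genes by Ensembl cattle identifiers alone, so no gene symbol, function, position or sequence is given for the members, and the muscle label was not checked on marker genes. In whole tissue, fewer cells of a type and less RNA per cell cannot be told apart. Values in CPM are not per transcript length, so levels are compared between bulls and not between genes.

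Among the 13 bulls used for the choice, r ranged from 0.851 to 0.998, with a median of 0.913. The SD of the deviations lay between 0.401 and 1.99 log2 units, with a median of 0.557. Mean levels went from 1.05 to 294 CPM, and 22 of the 26 members averaged between 2 and 20 CPM. The log2 ratio of the group medians, restricted over control, lay between -0.29 and 0.28 at day 120 and between -0.22 and 0.26 at day 15. The threshold of r divided close neighbours. ENSBTAG00000003770 and ENSBTAG00000009489 were just inside, both at 0.851, and ENSBTAG00000005929 and ENSBTAG00000004046 just outside, at 0.8495 and 0.837. A further 296 genes met every other part of the rule and had a lower r. They serve below as the other variable genes, above the same SD threshold but not matched to the members in spread. These values made the choice and are a description only. For 14 members r stayed at 0.85 or more without any 1 of the 13 bulls, and for 12 it did not. Over all 10 bulls per group, apart libraries included, some members had group medians further apart. ENSBTAG00000002009 had 1.70 CPM in restricted and 0.222 CPM in control bulls on day 15. On day 120 ENSBTAG00000004364 had 3.96 and 2.56 CPM, and ENSBTAG00000004815 had 3.67 and 5.34 CPM, in the same order. The rule compared medians only, so group means could differ in members that were high in few bulls. ENSBTAG00000015290 and ENSBTAG00000026637, for example, were high in control bulls only.

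The members fell into genes with a step and genes with a graded spread. In 10 members the bulls, placed by the mean of their ordinary libraries, divided at a gap of at least 1 log2 unit, while in 16 there was no such gap. A gap of that size was present in 38.5% of the members, in 8.45% of the 296 other variable genes and in 2.30% of the 12753 genes tested. These shares are a description only, since the gaps come mostly from the bulls that chose the members and a bull standing far apart at both biopsies raises r.

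3 members were near absent in most or many bulls and clearly present in the rest. ENSBTAG00000016063 was present in 4 bulls, restricted bulls 2 and 9 and control bulls 4 and 10, where the ordinary libraries held 12.6 to 16.2 CPM (321 to 395 counts, median 14.8 CPM). In the other 16 bulls it lay between 0 and 0.272 CPM (0 to 7 counts), and 8 of their 26 ordinary libraries had no count. The ranges were far apart, and no bull changed sides between biopsies. A library without a count allows a level of up to 0.0910 to 0.145 CPM (3 counts in the largest and smallest library), and such limits cover counting error only. The apart library of restricted bull 9 held 12.5 CPM of this gene, and those of the 6 left-out bulls without it at most 0.308 CPM, so the biopsy not used to place a bull fell on the same side in 7 of 7 left-out bulls.

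ENSBTAG00000012710 was present in 7 bulls, restricted bulls 1, 3 and 9 and control bulls 2, 7, 8 and 10. Their ordinary libraries held 5.75 to 12.2 CPM (144 to 336 counts), while the other 13 bulls had 0 to 0.0732 CPM, with 21 of 23 libraries at 0. In the left-out bulls the apart libraries of the 4 bulls with the gene held 6.63 to 14.0 CPM and those of the other 3 bulls 0 to 0.0778 CPM. All 7 left-out bulls thus had both biopsies on the same side.

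ENSBTAG00000002009 divided the animals most evenly. 11 bulls had it, restricted bulls 1, 4, 6, 7, 9 and 10 and control bulls 1, 2, 3, 7 and 8, at 2.36 to 4.76 CPM (52 to 129 counts) in the ordinary libraries. The other 9 bulls had 0 to 0.0467 CPM, at most 1 count, and 13 of their 17 ordinary libraries were at 0. Here the apart libraries of the 6 left-out bulls with the gene held only 0.233 to 0.771 CPM, below every ordinary library of a bull with the gene and above every library of a bull without it. The presence of the 3 genes did not go together. Over the 20 bulls 7 of the 8 possible combinations occurred, the most frequent in 6 bulls, and 5 bulls had none of the 3 genes.

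**Figure D1:**
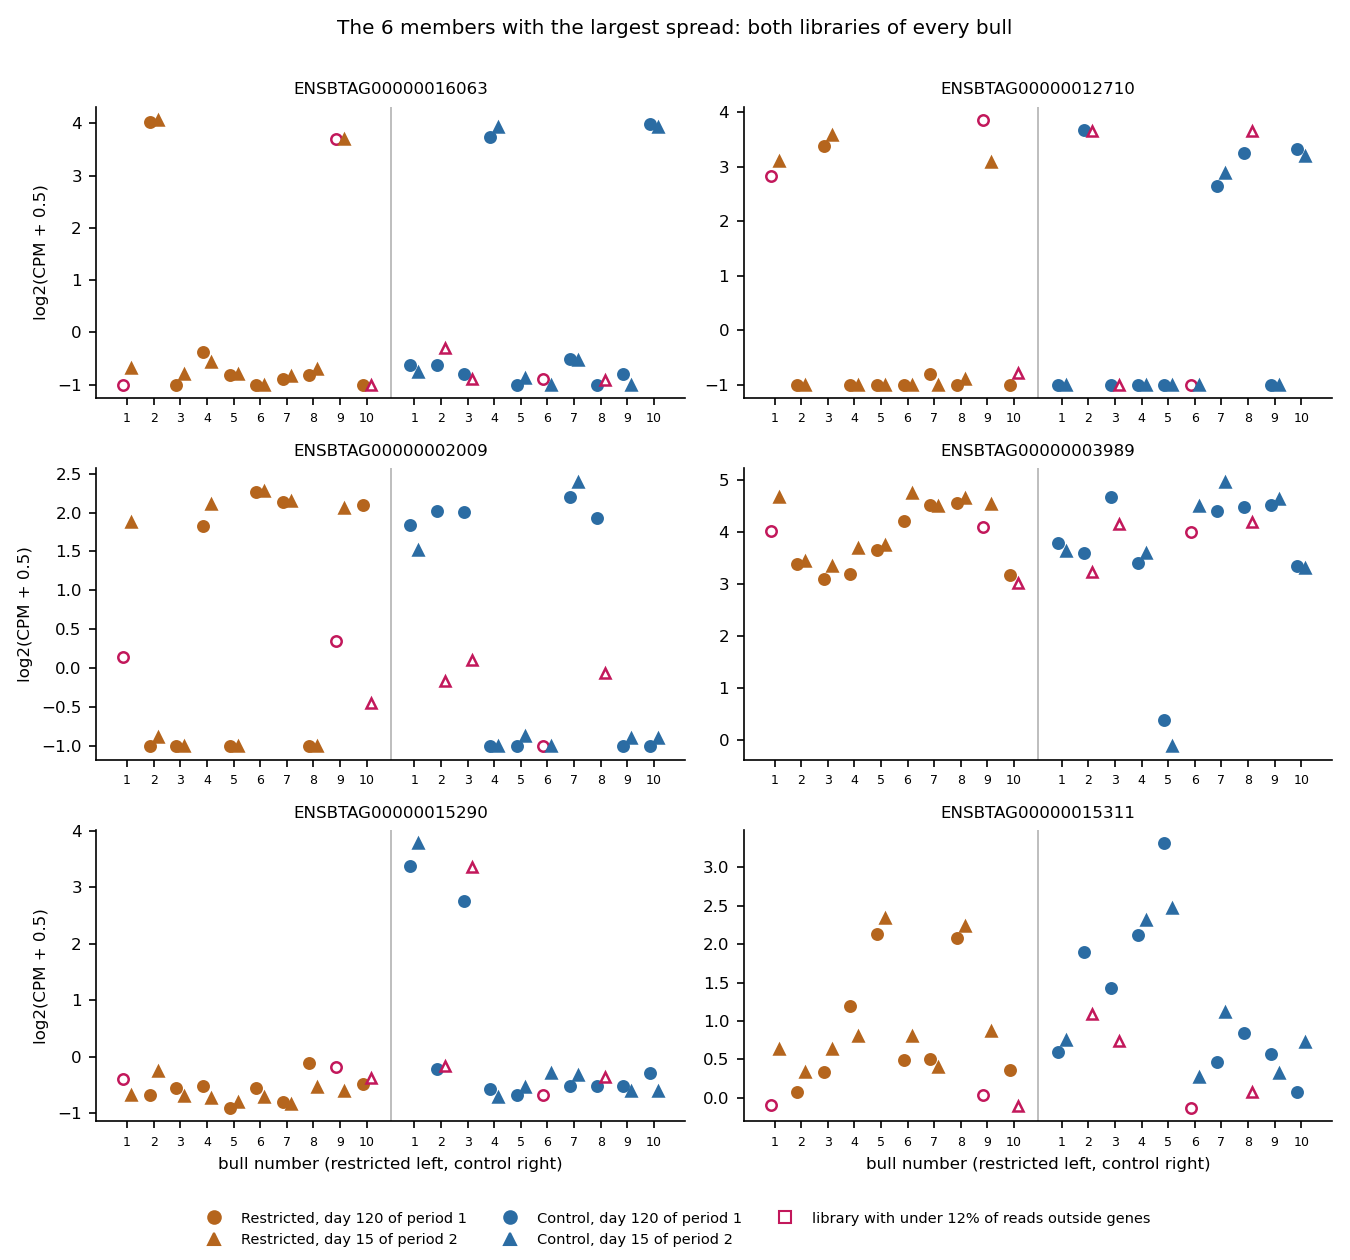
Level of the 6 members with the largest spread, as log2(CPM + 0.5) on the y axis, in both libraries of every bull (restricted bulls left, control bulls right; circles day 120, triangles day 15; open symbols are the 7 libraries with under 12% of reads outside genes). ENSBTAG00000016063 is high in 4 bulls, ENSBTAG00000012710 in 7 and ENSBTAG00000002009 in 11, and for the last of these the open symbols of 6 bulls lie between both levels.

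The other 7 members with a step were carried by 1 to 3 bulls. ENSBTAG00000015290 was high in control bull 1, at 13.2 CPM on day 15 and 9.90 CPM on day 120, and in control bull 3, at 9.80 CPM and 6.28 CPM, while all other ordinary libraries held 0.0322 to 0.430 CPM. Its r of 0.98 in the 13 bulls fell to 0.24 without control bull 1. Control bull 3 was left out of the choice, and it too was high at both biopsies.

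ENSBTAG00000026637 was high in control bulls 4, 6 and 7. On day 15 these held 9.95, 9.90 and 11.0 CPM and on day 120 12.0, 9.83 and 13.1 CPM, against 1.34 to 3.17 CPM in the ordinary libraries of the other 17 bulls. Control bull 6 was not among the bulls used for the choice. Without control bull 7 the r of this gene in the chosen bulls was 0.79, down from 0.87.

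4 members were marked by bulls with a low level. ENSBTAG00000003989 was at 0.421 CPM on day 15 and 0.809 CPM on day 120 in control bull 5, against 7.99 to 30.6 CPM in the ordinary libraries of the 19 other bulls. ENSBTAG00000010015 was low in restricted bull 1, at 1.58 CPM on day 15 and 0.736 CPM on day 120, and in control bull 1, at 1.14 CPM and 1.01 CPM. The other 18 bulls had 4.81 to 12.7 CPM in their ordinary libraries, so these bulls did not overlap with them at either biopsy.

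ENSBTAG00000024960 was nearly absent in control bull 6, a left-out bull, at 0.118 CPM (3 counts) on day 15 and 0 on day 120, against 1.33 to 6.33 CPM in the ordinary libraries of the other bulls. ENSBTAG00000004343 was lowest in restricted bull 8, at 3.38 CPM on day 15 and 3.69 CPM on day 120, against 7.66 to 19.9 CPM. Among the highs, ENSBTAG00000015432 rested on control bull 7 alone, at 13.5 CPM on day 15 and 8.38 CPM on day 120, against 0.782 to 2.45 CPM elsewhere. Without this bull its r in the chosen bulls was 0.19, against 0.86 with it.

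The 16 graded members ranked the bulls without a break. ENSBTAG00000048280 was between 15.0 and 40.5 CPM, with r of 0.967 in the 13 bulls and 0.953 without the bull that lowered it most. Restricted bull 4 held 40.1 CPM on day 15 and 40.5 CPM on day 120, and restricted bull 7 held 30.9 and 35.1 CPM. Control bull 9 held 30.2 and 30.4 CPM, while restricted bull 6, among the lowest, held 16.6 and 15.0 CPM. Restricted bull 4 was thus the highest of all bulls at both biopsies.

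ENSBTAG00000034785 ranged from 1.72 to 5.73 CPM in restricted and from 1.22 to 7.34 CPM in control bulls. Control bull 10 was lowest in its group at both biopsies, at 1.42 CPM on day 15 and 1.22 CPM on day 120, and control bull 8, a left-out bull, was highest, at 5.55 and 7.34 CPM. ENSBTAG00000018291 was highest among left-out bulls in control bull 6, at 15.3 CPM on day 15 and 12.5 CPM on day 120, and in restricted bull 1, at 13.5 and 9.70 CPM.

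ENSBTAG00000004815 followed the same form, with 2.07 and 2.30 CPM in restricted bull 6 and 12.0 and 9.92 CPM in restricted bull 8 on day 15 and day 120. In the left-out control bull 6 it reached 11.6 CPM on day 15 and 16.0 CPM on day 120. ENSBTAG00000015311 had medians of 1.15 CPM on day 15 and 0.846 CPM on day 120 in restricted bulls and of 1.17 and 1.15 CPM in control bulls. Its highest animal was control bull 5, at 5.05 CPM on day 15 and 9.42 CPM on day 120.

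ENSBTAG00000008203 was by CPM the most abundant member, at 121 to 534 CPM over all libraries. Its lowest animal was restricted bull 2, at 153 CPM on day 15 and 121 CPM on day 120. Over the 16 graded members the means of the bulls spanned 1.32 to 2.68 log2 units from lowest to highest, and none of these genes had a library at 0.

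The SD between both libraries of a bull was small against the SD between bulls in the animals used for the choice, with medians of 0.185 and 0.576 log2 units over the 26 members. In the left-out bulls the medians were 0.307 and 0.540 log2 units. The 296 other variable genes had 0.442 and 0.349 log2 units in the left-out bulls, and all genes tested had 0.366 and 0.177. In the median over the members, the SD between bull means was thus the larger one in the left-out bulls too. Each left-out bull has an apart library, so its SD between both libraries includes the shift of these libraries. The SD between bull means also carries part of the SD between libraries. A smaller SD between bull means, as in the other variable genes, therefore does not show that the animals were alike.

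**Figure D2:**
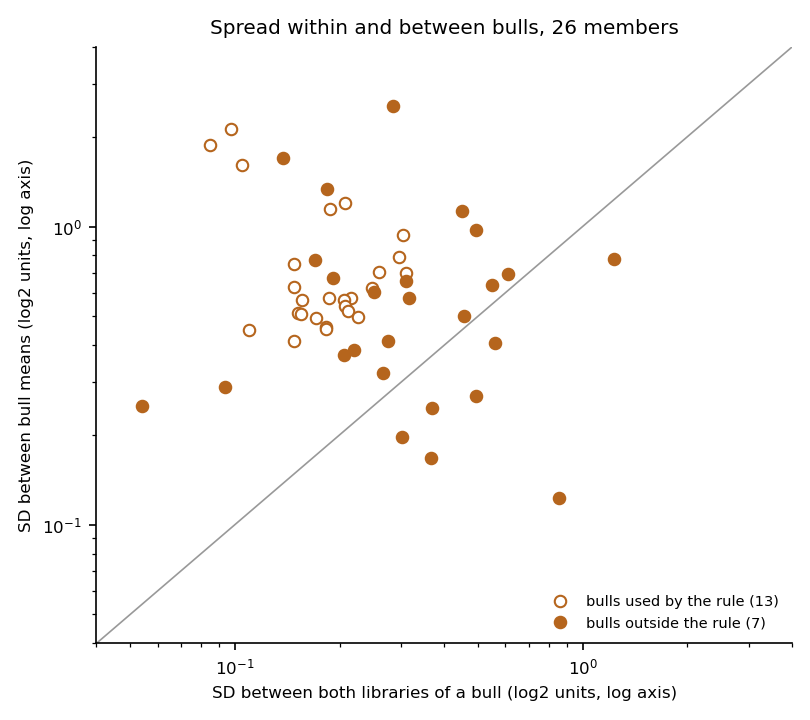
SD between both libraries of a bull (x axis, log2 units, log axis) and SD between bull means (y axis, log2 units, log axis) for each of the 26 members, in the 7 bulls left out of the choice (filled) and in the 13 bulls used for it (open). Points above the diagonal have a larger SD between bull means than between both libraries of a bull. For filled points the latter includes the shift of the apart libraries. All open points lie there by choice, and most filled points do.

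The left-out bulls allowed a test of the bull itself, since their values did not enter the computation of the rule. The rule itself was set with earlier results of these data known, and the filter on low counts used all 40 libraries. The left-out bulls are thus not a fully independent set. A fit to their 14 libraries held group means, a term for the apart libraries and a term for each bull. The bull terms were tested together for every gene with edgeR's quasi-likelihood F test. Of the 24 members that passed the filter on low counts, 15 had a bull effect at a Benjamini-Hochberg adjusted p under 0.05 (62.5%). Over all 12753 genes tested 461, or 3.61%, did, and among the 296 other variable genes 45, or 15.2%, did. An unadjusted p under 0.05 was reached by 20 of the 24. ENSBTAG00000016063 and ENSBTAG00000015290, high in few bulls, did not pass the filter. With no filter 16 of all 26 members were called, beside 2.59% of genes.

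6 of the 8 tested members with a step were among those called. Ordinary libraries of the left-out bulls also placed the steps, so step and call share values and this count is a description. In ENSBTAG00000003989 the bull below the gap, control bull 5, was a chosen bull, so its call does not bear on the step. The smallest adjusted p was that of ENSBTAG00000012710 (edgeR adjusted p = 2.84e-07), followed by ENSBTAG00000010015 (7.25e-05), whose left-out bulls ran from 1.58 and 0.736 CPM in restricted bull 1 to 21.4 and 10.9 CPM in restricted bull 10 on day 15 and day 120. ENSBTAG00000026637 had an adjusted p of 0.000242, ENSBTAG00000024960 of 0.00056, ENSBTAG00000003989 of 0.00059 and ENSBTAG00000002009 of 0.000905, all by edgeR. The calls of ENSBTAG00000026637 and ENSBTAG00000002009 were lost without control bull 6, the only left-out bull high for ENSBTAG00000026637 and the only one without ENSBTAG00000002009.

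Among the graded members 9 were called. ENSBTAG00000004815 and ENSBTAG00000013557 had an edgeR adjusted p of 0.000344 each, ENSBTAG00000034785 of 0.000863 and ENSBTAG00000018291 of 0.00108. The calls nearest the threshold were those of ENSBTAG00000012199 at 0.0428, ENSBTAG00000038536 at 0.0455 and ENSBTAG00000015311 at 0.0491. Of 14 alternatives, ENSBTAG00000012199 was called in 7 and the other two in 3 each. Of the 15 members, 8 were called in every alternative that kept the term for the apart libraries, among them ENSBTAG00000012710, ENSBTAG00000003989, ENSBTAG00000010015 and ENSBTAG00000034785. Without that term 1 member, ENSBTAG00000012710, was called (edgeR), beside 6 genes in all.

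9 tested members had no call in the left-out bulls. Their edgeR adjusted p ran from 0.106 for ENSBTAG00000008203 to 0.826 for ENSBTAG00000003770, and a p above the threshold does not show that the left-out bulls were alike. ENSBTAG00000008203 was called in 4 of 14 alternatives, among them DESeq2, with adjusted p of 0.00261 to 1.00 over all 14. The other 8 were called in none. ENSBTAG00000015432 (adjusted p = 0.819) lay between 0.782 and 2.19 CPM in all 14 libraries of these bulls, so the level of control bull 7 was not met again among them. ENSBTAG00000003770 had 3.50 to 11.0 CPM, and in each of the 7 bulls the apart library was the lower one.

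The r of both biopsies in the left-out bulls gave the same measure as the choice, in other animals and with n = 7. Its median over the 26 members was 0.783, with 20 members above 0 and 16 (61.5%) above 0.5. The 296 other variable genes had a median of 0.101 with 19.9% above 0.5, and the genes tested a median of -0.331 with 11.0% above 0.5. Each left-out bull has its apart library at only 1 biopsy, and all genes share that pattern. The mean shift of the apart libraries was estimated over all 40 libraries beside the group means, without bull terms. Values of the chosen bulls thus enter it, and differences between bulls can be mixed into it. The r with this shift taken out is therefore a description only. Its medians were 0.854 for the members, 0.358 for the other variable genes and 0.272 for all genes tested. The share above 0.5 was then 80.8%, 34.8% and 31.4%, in the same order.

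At n = 7 a single gene could not pass on this measure. The exact one-sided permutation test within feeding groups had 144 pairings and a smallest p of 0.00694, and the smallest adjusted p over the genes tested was 1. ENSBTAG00000048280, with an r of 0.98 in the left-out bulls, held between 17.3 and 29.9 CPM there. Control bull 2 was highest at both biopsies, at 29.9 CPM on day 15 and 27.6 CPM on day 120. The members of lowest r were ENSBTAG00000003770 at -0.92, ENSBTAG00000015432 at -0.42, ENSBTAG00000031010 at -0.30 and ENSBTAG00000002009 at -0.12. With the shift of the apart libraries taken out, ENSBTAG00000031010 was at 0.81, ENSBTAG00000002009 at 0.23 and ENSBTAG00000003770 at 0.15, whereas ENSBTAG00000015432 stayed below 0 at -0.34. ENSBTAG00000009489 also stayed below 0, at -0.05 after and -0.11 before the shift was taken out, and ENSBTAG00000004364 was at -0.28 after and 0.49 before. The pair just outside the threshold, ENSBTAG00000004046 and ENSBTAG00000005929, had r of 0.94 and 0.77 in the left-out bulls. The pair just inside had -0.92 and -0.11.

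**Figure D3:**
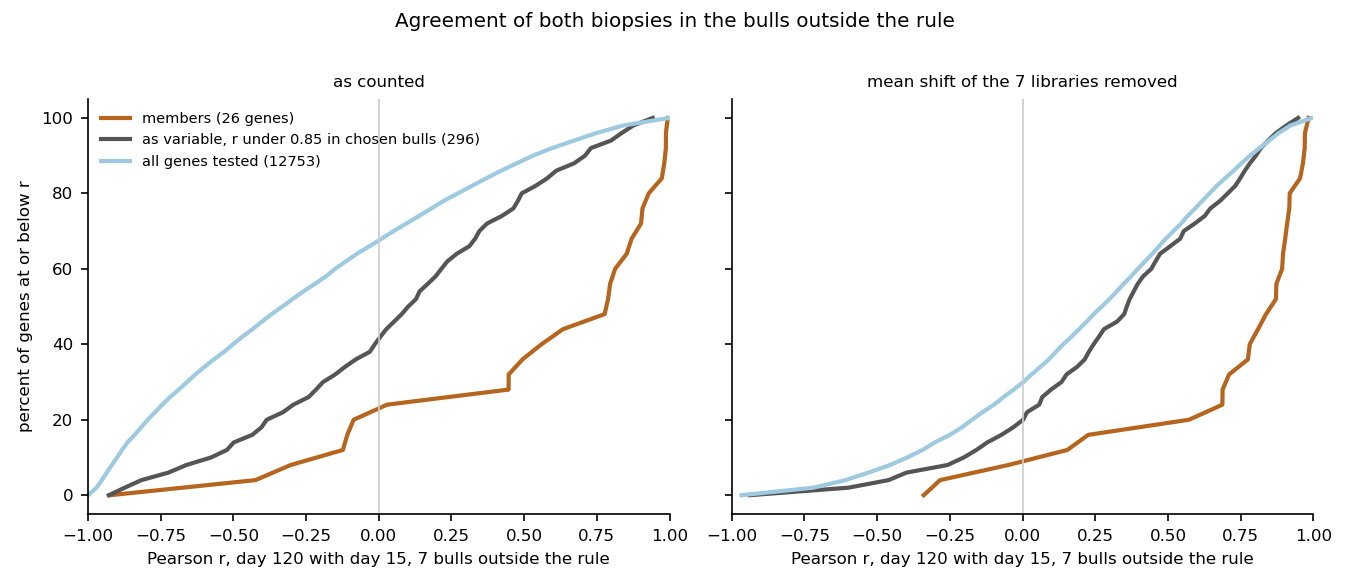
Cumulative percent of genes (y axis) at or below each Pearson r between day 120 and day 15 in the 7 left-out bulls (x axis). Curves show the 26 members, the 296 other variable genes with a lower r in the chosen bulls, and all 12753 genes tested. Left, values as counted. Right, after removal of the mean shift of the 7 apart libraries, estimated over all 40 libraries, chosen bulls included. The curve of the members lies to the right of the others in both panels, with medians of 0.783 and 0.854.

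Across all 26 members together, the libraries of a left-out bull were mostly closest to each other. Each library was compared with the 10 libraries of its feeding group at the other biopsy, by the Euclidean distance of the centred log2 values. In 13 of 14 libraries of left-out bulls the closest one carried the same bull number. The 14 libraries come from 7 bulls, and both libraries of a bull share their distance to each other, so they are not separate trials. Members of large spread weigh most in this distance. The same count for other genes is not given, and same-numbered libraries also correlated over all genes tested. The exception was restricted bull 10 on day 120, which lay 3.67 log2 units from its own apart library and 2.67 from restricted bull 6. All 26 libraries of the bulls used for the choice were closest to their own number, which the choice of genes favours.

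**Figure D4:**
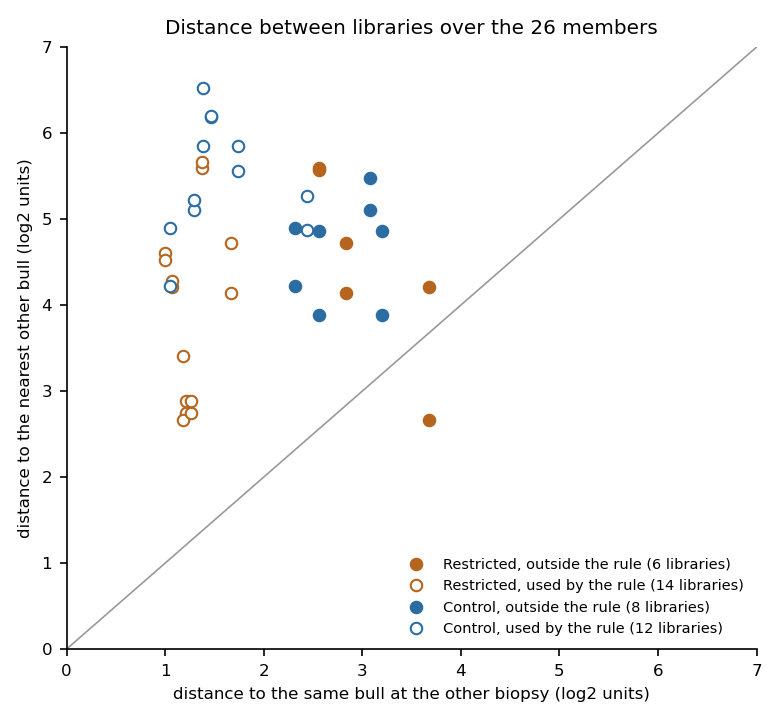
Distance over the 26 members from each library to the same bull at the other biopsy (x axis, log2 units) and to the nearest other bull of its feeding group there (y axis, log2 units); filled points are libraries of left-out bulls. Points above the diagonal are closest to their own bull. Of the 14 filled points 13 lie above it, and 1 restricted library, at 3.67 and 2.67, lies below.

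The apart libraries differed from the ordinary library of the same bull in 11 of the 24 tested members, 7 of them lower and 4 higher in the apart libraries (edgeR, adjusted p under 0.05). Over all genes tested 56.3% differed, 27.5% lower and 28.8% higher. The median size of the fitted difference was 0.45 log2 units in the members and 0.44 in all genes tested. By count and size the members were thus close to the background.

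ENSBTAG00000002009 had the largest fitted difference of the members. In restricted bulls 1, 9 and 10 the apart libraries held 0.606, 0.771 and 0.233 CPM, against 3.17, 3.68 and 3.77 CPM in the ordinary ones. In control bulls 2, 3 and 8 they held 0.396, 0.581 and 0.460 CPM, against 3.55, 3.52 and 3.31 CPM. The apart library was lower in 6 of 6 bulls that had the gene. The fitted log2 difference was -2.94 ± 0.31 (SE), or 7.66-fold lower (edgeR adjusted p = 8.37e-06), and 25 of the 12753 genes, itself included, were as low or lower. What set the 7 libraries apart was not tested. ENSBTAG00000012710 had the next largest fitted difference, 1.78 ± 0.85 log2 units higher in the apart libraries (SE), which did not pass (edgeR adjusted p = 0.0940) and rests partly on libraries at 0. In the 4 left-out bulls with this gene the apart library was higher in 2 and lower in 2.

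ENSBTAG00000003770 had a log2 difference of -0.99 ± 0.11 (SE), or 1.98-fold lower (edgeR adjusted p = 8.74e-06), and was lower in 7 of 7 bulls. Among the members called higher, ENSBTAG00000010015 was higher by 0.75 ± 0.14 and ENSBTAG00000004343 by 0.63 ± 0.09 log2 units (edgeR adjusted p = 0.000543 and 6.61e-05). For ENSBTAG00000010015 the apart library was the higher one in 6 of 7 bulls and the lower one in restricted bull 1, and for ENSBTAG00000004343 it was higher in 7 of 7.

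**Figure D5:**
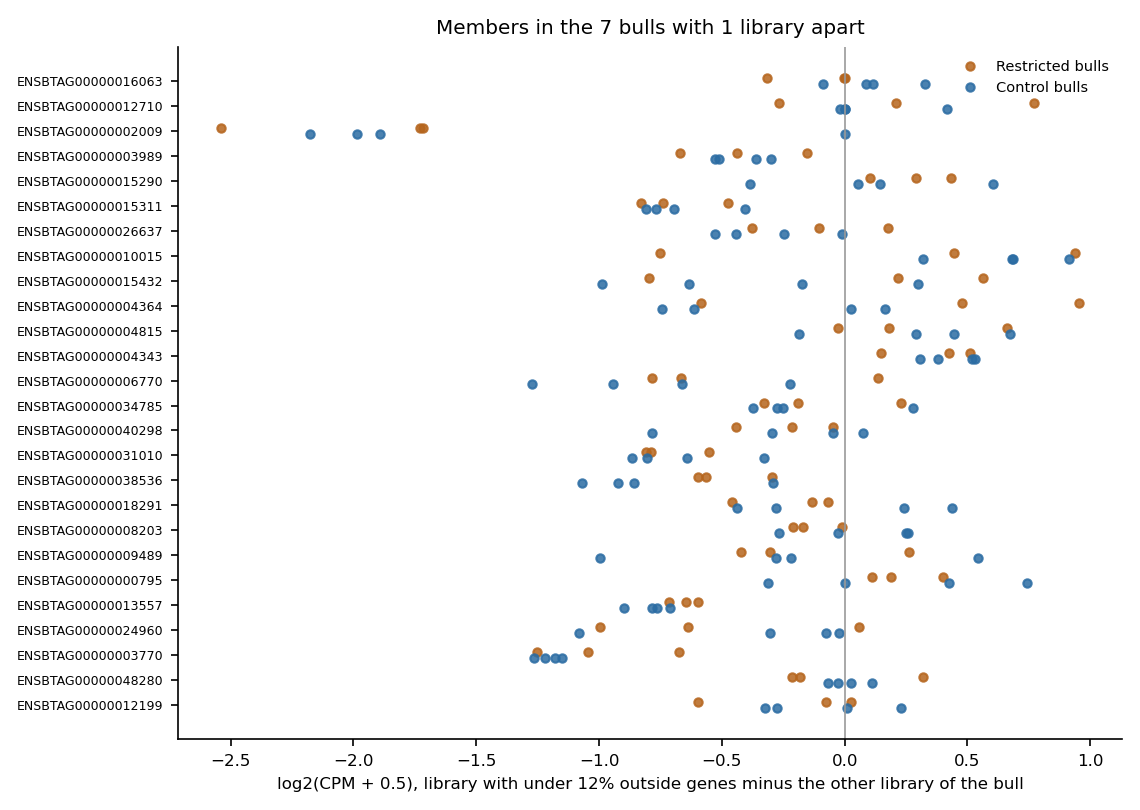
Difference in log2(CPM + 0.5) between the apart library and the ordinary library of the same bull (x axis), for the 26 members (rows) in the 7 left-out bulls. ENSBTAG00000002009 lies furthest to the left, in the 6 bulls that have the gene, and ENSBTAG00000003770 lies below 0 in all 7.

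The members did not form 1 block. Over the mean deviations of the 20 bulls, 0 of the 325 pairs of members reached an absolute r of 0.7, and the median absolute r was 0.163. The highest was 0.66, between ENSBTAG00000031010 and ENSBTAG00000004343, and the most negative was -0.66, between ENSBTAG00000003770 and ENSBTAG00000000795. All pairs share the same 20 bulls and the same scaling.

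For the 3 members of largest spread, the genes most like them over the deviations of all 40 libraries were sought among all genes tested. The closest likeness was that of ENSBTAG00000047547 to ENSBTAG00000002009, at r of 0.87. ENSBTAG00000047547 held 30.2 to 46.8 CPM in the ordinary libraries of the 11 bulls with ENSBTAG00000002009, against 12.4 to 22.4 CPM in those of the 9 bulls without it, with no overlap. In the apart libraries it was at 10.1 to 14.5 CPM in the 6 bulls with ENSBTAG00000002009 and at 9.67 CPM in control bull 6, which lacks it. In the bulls with ENSBTAG00000002009, both genes were thus lower in all apart libraries than in all ordinary ones.

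The other genes most alike had lower r and overlapping levels. ENSBTAG00000032527 followed ENSBTAG00000002009 at 0.61, and ENSBTAG00000014124 and ENSBTAG00000015012 followed ENSBTAG00000016063 at 0.60 and 0.56. ENSBTAG00000010520 and ENSBTAG00000010130 followed ENSBTAG00000012710 at 0.62 and 0.60. ENSBTAG00000010130 held 10.7 to 20.8 CPM in the ordinary libraries of bulls with ENSBTAG00000012710 and 8.78 to 15.5 CPM in those without it.

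The rule set no limit on the change over time within a feeding group. In the chosen bulls it did bound the difference between the feeding groups at both biopsies, and so how far their changes could differ. For this reason no test of that difference is given, and the counts below are not read against the background. In the fit of 4 group means to all 40 libraries, 0 of the 24 tested members changed over time in restricted bulls (edgeR), 1 had an unadjusted p under 0.05, and DESeq2 and limma with voom also called 0. Over all genes tested 19.1% changed. In control bulls 0 members changed in edgeR, DESeq2 and limma with voom, 0 had an unadjusted p under 0.05 in edgeR, and 0.0392% of genes changed. This fit counts the stable difference between bulls as error, which is large in these genes by choice.

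With each bull as a replicate block, 3 members changed in restricted bulls, 1 higher and 2 lower on day 15, while 20.2% of all genes did, 10.5% higher and 9.75% lower. ENSBTAG00000004364 averaged 2.66 ± 1.23 CPM on day 15 and 4.13 ± 1.97 CPM on day 120 in restricted bulls (SD, n = 10 each), and was lower on day 15 in 10 of 10 of them. In control bulls it averaged 3.09 ± 2.94 CPM on day 15 and 2.99 ± 1.80 CPM on day 120, lower in 6 of 10. With the block the log2 change was -0.71 ± 0.12 (SE; edgeR adjusted p = 0.000266) in restricted and -0.13 ± 0.12 (adjusted p = 0.517) in control bulls. Over the alternatives the change in restricted bulls ranged from -0.83 to -0.63 log2 units and its edgeR, DESeq2 or limma adjusted p from 8.48e-05 to 0.251.

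ENSBTAG00000008203 averaged 344.8 ± 110.7 CPM on day 15 and 273.3 ± 82.9 CPM on day 120 in restricted bulls (SD, n = 10 each), and was higher on day 15 in 9 of 10. Its blocked log2 change was 0.25 ± 0.08 (SE; edgeR adjusted p = 0.0285). The adjusted p without the block was 0.406. ENSBTAG00000015432 had a blocked log2 change of -0.49 ± 0.16 (edgeR adjusted p = 0.0318), was lower on day 15 in 8 of 10 restricted bulls, and had an adjusted p of 0.117 in the chosen bulls alone. In control bulls the blocked fit called 0 members, with 5 at an unadjusted p under 0.05, beside 0.0235% of genes. Whether a change was particular to restricted bulls is not judged, since the rule bounded the difference between feeding groups in the chosen bulls.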

How the data were processed

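The authors deposited whole-number read counts per gene for every library, in the layout HTSeq writes. They also deposited a normalised signal for 10882 genes in period 1 and 10977 in period 2, used here only in 1 alternative. Per the submitters' processing notes, the tools were CASAVA 1.4, TopHat, HTSeq and edgeR and the assembly was UMD3.1. The sources used here do not give their roles or settings. Reads outside genes, ambiguous reads and 92 spike-in entries, all at 0, stayed out of library sizes.

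The members and lists were chosen with earlier results of these data known. Group means, r, SD, levels and medians of the rule were computed on the 13 bulls without an apart library. 0 of the 24616 identifiers matched a gene name, so the prepared gene and marker lists could not be applied and genes were named by spread, r, smallest p, lowest r, time change and nearness to the threshold, without a symbol.

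Tests used edgeR 4.0.16 in R 4.3.3 (TMM, filterByExpr, robust quasi-likelihood F test), with Benjamini-Hochberg adjustment over 12753 genes and a threshold of 0.05. Standard errors came from the F statistics. Alternatives were DESeq2 1.42.0, limma 3.58.1, other scalings, filters and pseudocounts, a replicate block, and leaving out each left-out bull. Exact permutation tests used NumPy 2.4.6 in Python 3.11.15, and SciPy 1.17.1 gave the ranks for Spearman's rho. Scripts were tested on simulated data. With the shift of the apart libraries taken out, same-numbered libraries correlated above 0.1 in 10 of 10 pairs of each feeding group. Other numbers had medians of -0.04 and -0.02 in restricted and control bulls.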

Additional observations from a re-analysis of the deposited data

Results flagged for a closer look

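Within each group of 10 libraries, a library was singled out where its gap to the nearest other library, divided by the range of the group, was above the 95% critical value of Dixon's test on log2 values. This happened in 12 of 104 groups (11.5%), in 8 members, and chance alone gives about 5% of groups. The members were chosen for a wide spread and for agreement between biopsies, which favours both such gaps and the same bull standing apart at both biopsies, so the share is a description only.

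In 3 members the same bull stood apart at both biopsies. In ENSBTAG00000003989 control bull 5 was lowest, with ratios of 0.658 on day 15 (0.421 CPM) and 0.688 on day 120 (0.809 CPM). In ENSBTAG00000010015 control bull 1 was lowest, with 0.514 on day 15 (1.14 CPM) and 0.597 on day 120 (1.01 CPM), and restricted bull 1 was lowest on day 120 in its apart library, with 0.655 (0.736 CPM). In ENSBTAG00000015432 control bull 7 was highest, with 0.733 on day 15 (13.5 CPM) and 0.625 on day 120 (8.38 CPM).

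The other 5 members each had 1 library apart. Control bull 7 was highest in ENSBTAG00000004364 on day 15 (0.469, at 10.8 CPM), control bull 6 was highest in ENSBTAG00000004815 on day 120 in its apart library (0.505, at 16.0 CPM), and control bull 5 was highest in ENSBTAG00000009489 on day 15 (0.481, at 18.4 CPM). Restricted bull 8 was lowest in ENSBTAG00000004343 on day 15 (0.489, at 3.38 CPM). Control bull 6 was lowest in ENSBTAG00000024960 on day 120 in its apart library (0.614, at 0 CPM).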

How the results depend on the processing

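The number of members was 26 and fell to 17 with all bulls kept (8 shared), to 17 with Spearman's rho (15 shared), to 14 at an r of at least 0.90 and to 14 where r also had to hold without any 1 bull. It lay between 23 and 35 under the other 7 settings: TMM factors gave 35 (20 shared), DESeq2 size factors 34 (19 shared), and the authors' normalised values 29 (14 shared). Group means, SD, mean CPM and medians taken over all libraries together gave 30 (14 shared). 2 members, ENSBTAG00000003989 and ENSBTAG00000034785, were kept in all 8 settings of scaling, pseudocount, order, bulls and rho. The bull effect held 15 of 24 members and 1 without the term for the apart libraries. Leaving out 1 bull gave 10 to 14 members, and the genes called in all were then 246, 229 and 263 without control bulls 3 and 6 and restricted bull 9, against 461. Total counts gave 116 genes and 11 members. The median r in left-out bulls was 0.727 with DESeq2 size factors, 0.589 with Spearman's rho and 0.854 with the shift removed, and 0.643 to 0.788 without 1 bull. In restricted bulls over time the replicate block gave 3 members, against 0 in the fit without a block. The block with the term for the apart libraries gave 4, adding ENSBTAG00000003770 (edgeR adjusted p = 0.0187). The block in the chosen bulls alone, an alternative added after seeing the data, gave 3, but not the same ones. There ENSBTAG00000031010 was called (edgeR adjusted p = 0.0323) and ENSBTAG00000015432 was not (0.117). In control bulls the block changed no call of a member. The causes of these shifts were not tested. With 7 left-out bulls, 1 library of each standing apart, the tests resolve only differences that exceed the spread of these libraries, and levels near 3 counts are not resolved from 0.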
